A study of Mus musculus with 8 samples.

Results

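The genes described here write, read or organise methylation of histone H3 at lysine 9, the mark of silent heterochromatin, and keep retroelements quiet. All 10 chosen genes, Suv39h1, Suv39h2, Ehmt1, Ehmt2, Setdb1, Atf7ip, Trim28, Cbx1, Cbx3 and Cbx5, were found among the 54018 identifiers of the expression table by symbol, and all 10 were among the 12890 genes expressed highly enough to be tested. No member passed the test across all genes. The largest differences were in Suv39h2, Cbx3 and Suv39h1, whose mean levels with the Kdm1a knockdown were 2.38, 1.84 and 1.78 times the control means.

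RNA was measured in splenic mononuclear cells of leukaemic C57BL/6 mice that carry the Eµ-TCL1A transgene, a model of chronic lymphocytic leukaemia. The knockdown group (Kdm1aKD;Eµ-TCL1A, n = 4, replicates 1, 2, 4 and 5) also carries a doxycycline-inducible knockdown of Kdm1a, the lysine demethylase LSD1, and was given doxycycline once leukaemic. The control group (Eµ-TCL1A, n = 4, replicates 1 to 4) carries the transgene alone, and the labels do not say whether it was given the drug, or give the animals' ages. The Eµ enhancer is known for activity in B lymphocytes, while the cells that express the knockdown construct are not named in the labels. The question the design poses is how expression in leukaemic spleen differs when Kdm1a is depleted.

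As background, SUV39H1 and SUV39H2 add the trimethyl mark in pericentromeric heterochromatin, the EHMT1 and EHMT2 pair (GLP and G9a) adds the dimethyl mark in euchromatin, and SETDB1 trimethylates retroelement sequences. SETDB1 is stabilised by ATF7IP and is brought to DNA by TRIM28 (KAP1), which binds the KRAB zinc finger proteins that read retroelement sequences. The HP1 proteins CBX5, CBX1 and CBX3 (HP1 alpha, beta and gamma) bind the methylated tail. KDM1A removes methyl groups from mono- and dimethylated lysine 4 of histone H3 and, in some complexes, from lysine 9.

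Values are FPKM, fragments scaled by transcript length and by the library's mapped fragments, so levels of different genes are on one scale per length. The steps between low values gave an estimated 38500000 to 45200000 fragments a library, at which 1 fragment on a 1 kb transcript is worth 0.0221 to 0.0260 FPKM. Suv39h2, the member of lowest level, rested on at least 56.9 fragments per kilobase, so counting error was small beside the spread between libraries. Differences are on the log2(FPKM + 1) scale, knockdown minus control, each with its 95% interval, and were tested with limma with Benjamini-Hochberg adjustment over all genes. Of all genes tested, 210 rose (1.63%) and 14 fell (0.109%) at an adjusted p under 0.05, and the first count ranged from 7 to 301 when 1 library was left out.

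Kdm1a itself was at 20.2, 21.0, 15.6 and 15.5 FPKM in knockdown replicates 1, 2, 5 and 4 and at 24.2, 21.2, 24.1 and 31.1 FPKM in control replicates 1 to 4. The groups did not overlap, although knockdown replicate 2 and control replicate 2 nearly met, and the log2 difference of -0.45 did not pass (limma, adjusted p = 0.223). The labelled cell type held B cells in every library, with Cd79a at 355 to 1300 FPKM. Knockdown replicate 4 stood apart with a mean B cell marker level of 6.55 on the log2(FPKM + 1) scale against 7.87 to 8.24 in the other 7 libraries, and with an erythroid marker level of 7.78 against 4.11 to 5.76. Xist was at 94.9 FPKM or more in all knockdown libraries and control replicate 1 and at 0.128 FPKM or less in control replicates 2 to 4, where Ddx3y was at 11.6 to 31.5 FPKM, so sex and group were almost the same split. In bulk RNA, fewer cells of a type and less RNA per cell cannot be told apart.

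For the members whose levels differed most, the promoter windows that hold a match are shown first. The letters searched are known from promoters of cell cycle genes. Windows run from 250 bases before to 50 bases after a RefSeq start site (GRCm38.p6), 5′ to 3′ on the gene's strand, and 14 of the 32851 windows belong to the 10 members. The E2F letters searched on both strands were TTTCCCGC, TTTCGCGC, TTTGCCGC and TTTGGCGC, and 2.26% of all windows hold one. Among the members they were found in 1 window of Cbx3 and 1 of Suv39h1. TTTGAA, the letters of the cell cycle homology region, also on both strands, was chosen after the windows had been seen and is in 17.9% of all windows, among them those of Suv39h2 and Atf7ip. Capitals mark the matches, and a match is a description of the letters and not of binding.
Suv39h2, chr2:3474937-3475236, minus strand: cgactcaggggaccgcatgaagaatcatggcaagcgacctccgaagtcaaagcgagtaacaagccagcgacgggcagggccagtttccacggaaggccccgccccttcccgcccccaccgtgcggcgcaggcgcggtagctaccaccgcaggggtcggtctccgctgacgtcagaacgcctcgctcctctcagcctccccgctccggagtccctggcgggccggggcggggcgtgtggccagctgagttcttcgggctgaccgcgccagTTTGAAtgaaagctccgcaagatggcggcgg
Cbx3, chr6:51470366-51470665, plus strand: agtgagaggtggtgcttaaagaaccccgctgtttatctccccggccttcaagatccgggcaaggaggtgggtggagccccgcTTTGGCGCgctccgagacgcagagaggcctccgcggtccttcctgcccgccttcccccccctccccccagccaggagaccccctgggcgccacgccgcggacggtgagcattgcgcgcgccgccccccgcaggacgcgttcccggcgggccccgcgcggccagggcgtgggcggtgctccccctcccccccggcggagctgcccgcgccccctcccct
Suv39h1, chrX:8074312-8074611, minus strand: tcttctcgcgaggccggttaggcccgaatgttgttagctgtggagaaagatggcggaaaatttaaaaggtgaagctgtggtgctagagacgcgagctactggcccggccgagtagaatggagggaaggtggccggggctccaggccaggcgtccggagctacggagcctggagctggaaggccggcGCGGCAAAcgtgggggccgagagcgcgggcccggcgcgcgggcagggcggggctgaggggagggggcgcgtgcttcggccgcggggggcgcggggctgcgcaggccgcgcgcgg
The matches lie before the start site in Cbx3 and Suv39h1 and after it in Suv39h2. Each of the 3 windows is rich in CG, with 33, 34 and 37 CG pairs against a median of 7 over all windows. This is not particular to them, as windows of the other members hold 8 (Cbx5) to 40 (Ehmt2) pairs. The other windows of Cbx3 and Suv39h1, with 32 and 15 pairs, hold no match. That Suv39h1 window, chrX:8074711-8075010, is the one that spans the gene's annotated 5′ end. The window of Cbx1, with 22 pairs, also holds no match.

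Both SUV39H enzymes had higher mean levels with the knockdown. Suv39h2 (ENSMUSG00000026646, GRCm38 chromosome 2, 3455815 to 3475031, minus strand) was at 2.87, 4.18, 3.89 and 7.02 FPKM in knockdown replicates 1, 2, 5 and 4 and at 1.89, 2.32, 1.90 and 1.42 FPKM in control replicates 1 to 4. Every knockdown library was above every control library, and knockdown replicate 4 was the highest. The means were 4.49 ± 1.78 and 1.88 ± 0.368 FPKM (SD, n = 4 each), and the log2 difference was 0.89 (0.35 to 1.42, SE 0.24). It did not pass over all genes (limma, p = 0.00426, adjusted p = 0.103), and the two-sided exact permutation p was 0.0286, the smallest that 70 assignments allow. Dclre1c, a DNA repair nuclease gene whose span on the other strand overlaps in part, was at 5.36 to 8.59 FPKM in the knockdown and 7.27 to 9.40 FPKM in the control libraries. How reads of the shared span were divided between both genes was not tested.

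Suv39h1 (ENSMUSG00000039231, chromosome X, 8061171 to 8074760, minus strand) was at 21.1, 34.1, 21.7 and 46.5 FPKM in the knockdown libraries in the same order and at 16.7, 16.3, 15.3 and 21.2 FPKM in the control libraries. The groups touched at knockdown replicate 1 and control replicate 4, which differed by less than 1 FPKM. Its log2 difference was 0.73 (0.14 to 1.31, SE 0.26) and did not pass (limma, p = 0.0197, adjusted p = 0.184, exact permutation p = 0.0571). The gene is on the X chromosome and the groups differ in sex. With sex as a covariate the log2 difference was 0.77 with an SE of 0.44, and the unadjusted call was lost (limma, adjusted p = 0.998). That fit separates sex from group by control replicate 1 alone, which was at 16.7 FPKM. Suv39h2 remained the minor enzyme per length in every library, at 0.122 to 0.180 of the Suv39h1 level in the knockdown and 0.0670 to 0.143 in the control libraries, ranges that overlap.

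**Figure D1:**
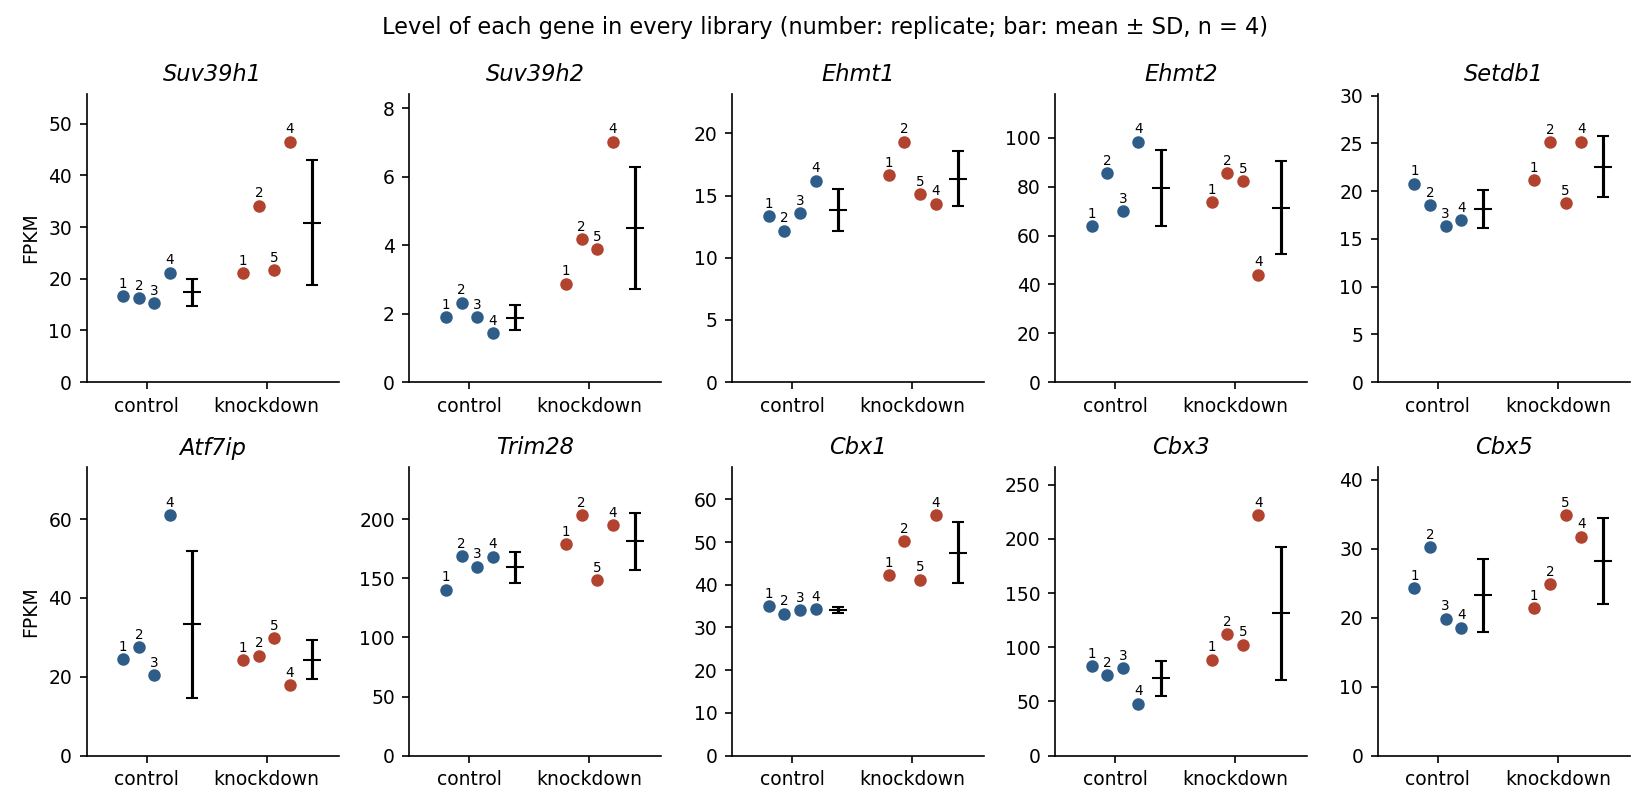
Level of each of the 10 genes in FPKM (vertical axes from 0) in the control and the knockdown libraries, with replicate numbers beside the points and bars for the mean ± SD of 4 libraries. In Suv39h2, Cbx1 and Cbx3 every knockdown library lies above every control library, and in 5 of the 10 genes knockdown replicate 4 is the highest point.

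The G9a and GLP pair did not show a common direction. Ehmt1 (ENSMUSG00000036893), which encodes GLP, was at 16.7, 19.3, 15.1 and 14.3 FPKM in knockdown replicates 1, 2, 5 and 4 and at 13.4, 12.2, 13.6 and 16.2 FPKM in the control libraries. The groups overlapped, with knockdown replicate 4 below control replicate 4, and the log2 difference was 0.23 (-0.14 to 0.60, limma adjusted p = 0.466). Ehmt2 (ENSMUSG00000013787), which encodes G9a, was at 73.7, 85.7, 82.2 and 44.0 FPKM and at 63.9, 85.6, 70.1 and 98.5 FPKM. Here the lowest library was knockdown replicate 4 and the highest control replicate 4, and the other 6 were mixed between 63.9 and 85.7 FPKM. Its log2 difference of -0.18 (-0.73 to 0.37, limma adjusted p = 0.708) was 0.035 without knockdown replicate 4 and 0.14 without both libraries numbered 4. The level of Ehmt2 per length was 3.07 to 5.43 times that of Ehmt1 in the knockdown libraries and 4.78 to 7.03 times in the controls. Of their partners, the chromodomain protein gene Cdyl had a mean of 7.17 against 4.52 FPKM without overlap between groups (log2 difference 0.57, limma adjusted p = 0.163), and Zfp644, a zinc finger partner, differed by 0.08 (adjusted p = 0.849).

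No gene of the SETDB1 branch, which acts on retroelements, passed the test or had an unadjusted p under 0.05. Setdb1 (ENSMUSG00000015697), the methyltransferase, was at 21.1, 25.1, 18.7 and 25.2 FPKM in knockdown replicates 1, 2, 5 and 4 and at 20.8, 18.6, 16.3 and 17.0 FPKM in the control libraries. Only knockdown replicate 5 lay within the control range, and the log2 difference was 0.29 (-0.08 to 0.66, limma adjusted p = 0.356, exact permutation p = 0.0571). Its span (chromosome 3, 95323525 to 95357202) shares only a short end with that of Cers2 (95314791 to 95323599). Cers2 is a ceramide synthase gene on the other strand at up to 117 FPKM. Reads of that shared end alone cannot be told apart unless strand was used. Atf7ip (ENSMUSG00000030213), the SETDB1 cofactor, was at 24.2, 25.3, 29.8 and 17.9 FPKM and at 24.5, 27.6, 20.4 and 61.0 FPKM. Control replicate 4 stood far above every other library, and without it the log2 difference was near 0 (-0.0032). The log2 difference was -0.33 (-1.05 to 0.39, limma adjusted p = 0.586), and without both libraries numbered 4 it was 0.13. Trim28 (ENSMUSG00000005566), the corepressor that links KRAB zinc finger proteins to SETDB1, was at 179, 203, 148 and 195 FPKM and at 140, 169, 160 and 168 FPKM. It had the highest level per length of the 10 genes in both groups, the groups overlapped, and the log2 difference was 0.18 (-0.20 to 0.56, limma adjusted p = 0.577).

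Among the HP1 readers, Cbx1 and Cbx3 were higher in every knockdown library than in any control library. Cbx3 (ENSMUSG00000029836, chromosome 6, 51470360 to 51483704, plus strand), which encodes HP1 gamma, was at 88.5, 112, 102 and 222 FPKM in knockdown replicates 1, 2, 5 and 4 and at 82.4, 74.2, 80.7 and 47.9 FPKM in the control libraries. The 2 extremes were both libraries numbered 4, and the lowest knockdown and the highest control library were 88.5 and 82.4 FPKM. The means were 131 ± 61.3 and 71.3 ± 16.0 FPKM, and the log2 difference was 0.81 (0.12 to 1.49, SE 0.30; limma, p = 0.0253, adjusted p = 0.201, exact permutation p = 0.0286). Without both libraries numbered 4 it was 0.34. The annotation holds 8 processed pseudogenes named for Cbx3, of which the highest reached 3.32 FPKM (Cbx3-ps8) and 3.25 FPKM (Cbx3-ps6), so some reads of Cbx3 may be split with its copies.

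Cbx1 (ENSMUSG00000018666, chromosome 11, 96789127 to 96808640, plus strand), which encodes HP1 beta, was at 42.3, 50.1, 41.2 and 56.3 FPKM in the knockdown libraries in the same order and at 35.0, 33.2, 34.0 and 34.3 FPKM in the control libraries. The controls were tight, with a mean of 34.1 ± 0.734 FPKM against 47.5 ± 7.10 FPKM. The log2 difference was 0.45 (0.10 to 0.80, SE 0.16; limma, p = 0.0163, adjusted p = 0.171, exact permutation p = 0.0286), and it was 0.37 without both libraries numbered 4. Cbx5 (ENSMUSG00000009575), which encodes HP1 alpha, was at 21.3, 24.8, 34.9 and 31.7 FPKM and at 24.3, 30.2, 19.9 and 18.6 FPKM. Its groups overlapped, with a log2 difference of 0.27 (-0.22 to 0.76, limma adjusted p = 0.510). The sum of the 3 HP1 genes was 152, 187, 179 and 310 FPKM in knockdown replicates 1, 2, 5 and 4 and 142, 138, 135 and 101 FPKM in the control libraries.

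Cbx3 was the main HP1 transcript per length in every library. It made up 58.2%, 59.9%, 57.4% and 71.6% of the HP1 sum in the knockdown libraries and 58.2%, 53.9%, 60.0% and 47.5% in the control libraries. Outside the libraries numbered 4 the share was 57.4% to 59.9% with the knockdown and 53.9% to 60.0% in the controls. Over the same 6 libraries Cbx1 made up 23.1% to 27.8% and 24.1% to 25.3%, and Cbx5 13.3% to 19.5% and 14.8% to 21.9%. The ratio of Atf7ip to Setdb1 was 0.711 to 1.59 in the knockdown libraries and 1.18 to 1.48 in control replicates 1 to 3, against 3.59 in control replicate 4. These ratios within a library do not depend on the scaling between libraries.

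**Figure D2:**
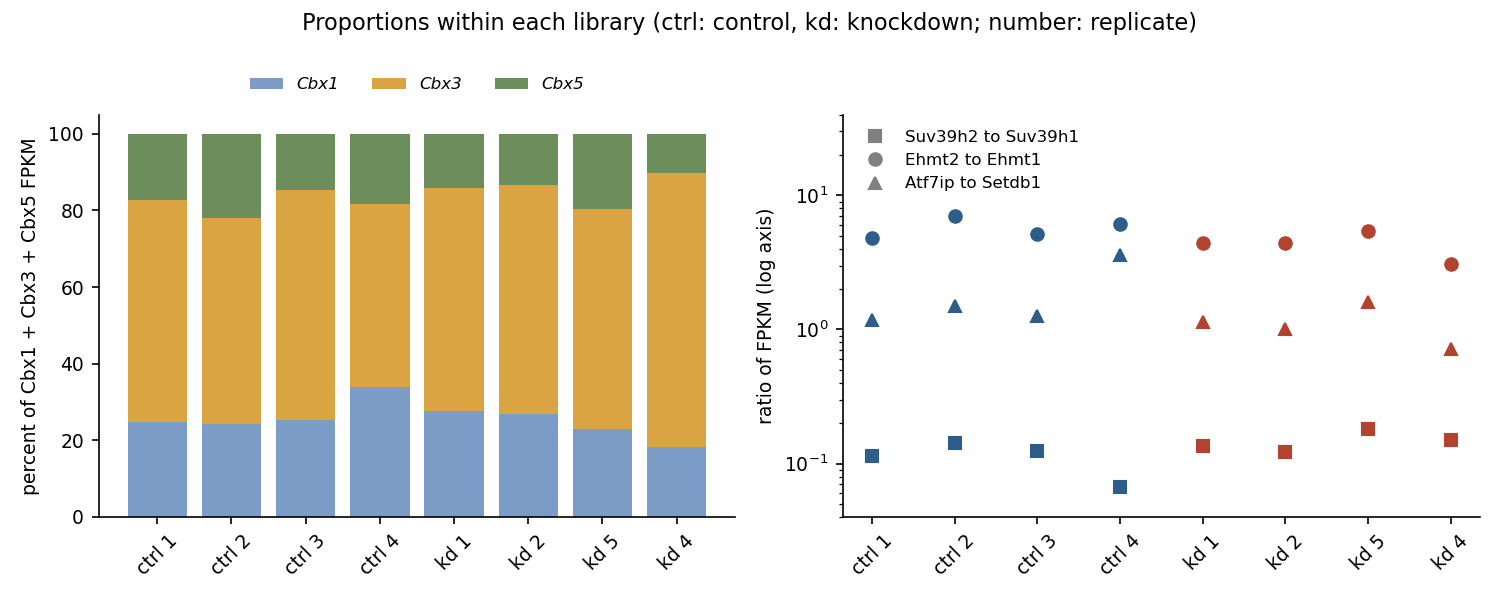
Proportions within each library, as percent of the summed FPKM of Cbx1, Cbx3 and Cbx5 (stacked bars, left) and as ratios of FPKM between 3 pairs of genes on a log axis (points, right, blue for control and red for knockdown). Cbx3 holds between 47.5% and 71.6% of the HP1 sum in all libraries, and both ends of that range are libraries numbered 4.

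Counted together, 4 of the 10 genes (Suv39h1, Suv39h2, Cbx1 and Cbx3) had an unadjusted p under 0.05 and a higher mean with the knockdown, where 15.8% of all genes tested did, and none had one with a lower mean, against 3.41%. In 3 of 10 the groups did not overlap with the knockdown higher, against 11.2% of all genes tested. The number with an unadjusted p under 0.05 was 4 without knockdown replicate 4, 3 without control replicate 4 and 5 without both libraries numbered 4. It was 2 with the replicate number as a block, 0 with sex and 0 with S phase level as a covariate. Of all 12890 genes, in either direction, 2480 had one in the main fit. In the other settings, in the same order, 1855, 2023, 1975, 2085, 559 and 764 did. Without both libraries numbered 4 all 10 members were positive, against 65.6% of all genes. None of the 10 passed at an adjusted p under 0.05 in either direction (limma). Positive log2 differences were found in 8 of 10, against 63.7% of all genes, and the median was 0.28 against 0.13. With median-of-ratios scaling of the libraries the median of all genes went to -0.01 and that of the members to 0.12. The same number of members was positive, against 48.5% of all genes. An unadjusted p under 0.05 was found in 1 of the 10, and in 2183 of all genes in either direction. Relative to the median of all genes, Suv39h2 was higher by 0.75, Cbx3 by 0.67, Suv39h1 by 0.60 and Cbx1 by 0.32, and Ehmt2 and Atf7ip differed from it by -0.31 and -0.46.

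**Figure D3:**
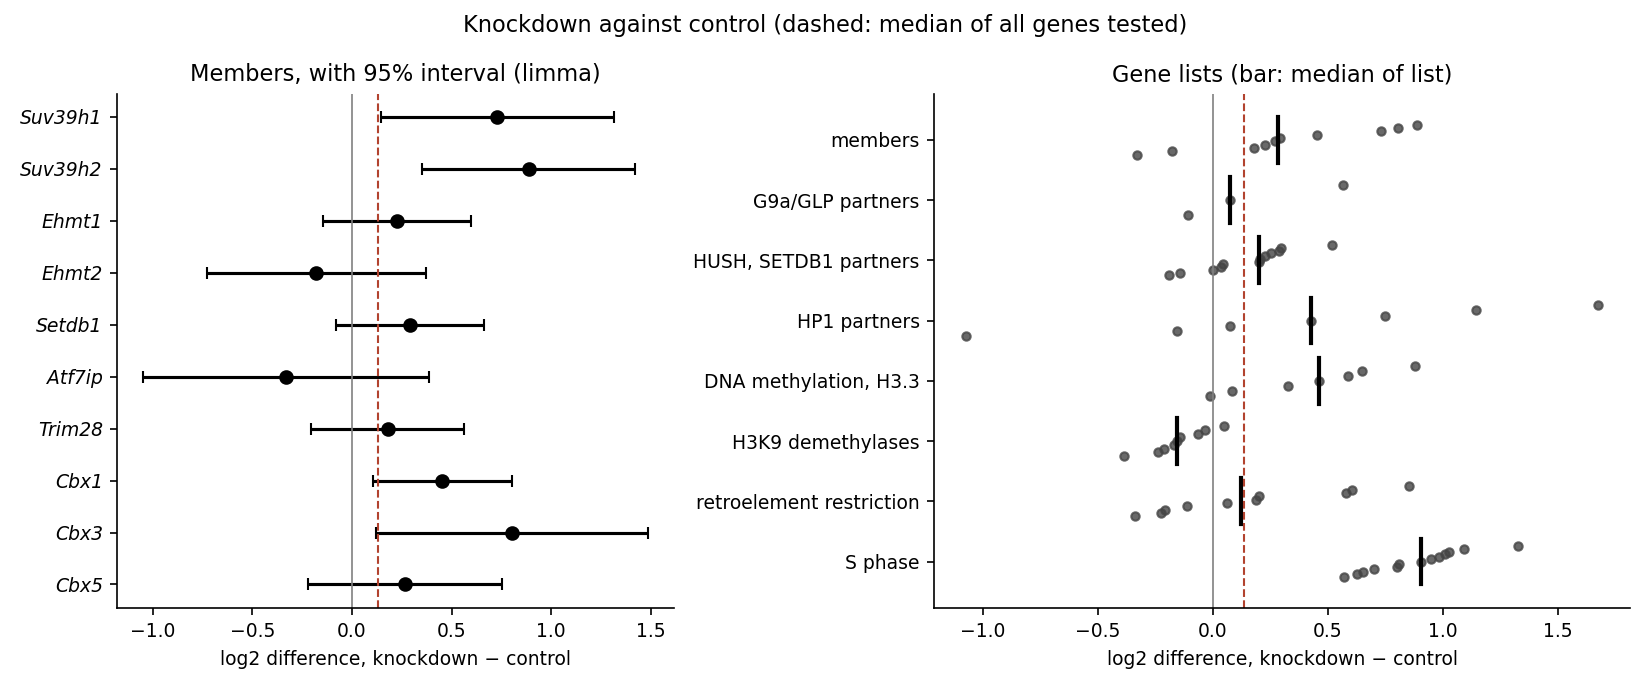
Log2 difference, knockdown minus control, of each of the 10 genes with its 95% interval (left) and of the genes of each related list with the list's median as a bar (right), where the dashed line is the median of all genes tested. The intervals of Suv39h2, Suv39h1, Cbx1 and Cbx3 lie above 0, and those of the other 6 genes include it.

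The order of levels per length was led by Trim28 in both groups (159 ± 13.2 FPKM in the control, 181 ± 24.2 FPKM in the knockdown) and closed by Suv39h2. In the control libraries Ehmt2 (79.5 ± 15.6 FPKM), Cbx3, Cbx1, Atf7ip (33.4 ± 18.6 FPKM), Cbx5, Setdb1, Suv39h1 and Ehmt1 (13.8 ± 1.70 FPKM) lay between. Ranges of neighbours in that order were apart between Trim28 and Ehmt2, between Cbx3 and Cbx1 and between Ehmt1 and Suv39h2, and overlapped elsewhere. In the knockdown libraries Cbx3 stood above Ehmt2 (71.4 ± 18.9 FPKM) and Suv39h1 (30.9 ± 12.1 FPKM) above Cbx5, Atf7ip, Setdb1 and Ehmt1. There the ranges of neighbours were apart between Cbx3 and Ehmt2 and between Ehmt1 and Suv39h2.

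Proliferation markers were higher in the same libraries, though none of the 13 S phase or 10 mitosis genes passed the test. The mean log2(FPKM + 1) level of 13 S phase genes was 5.12, 5.77, 5.48 and 6.70 in knockdown replicates 1, 2, 5 and 4 and 4.84, 5.11, 4.95 and 4.64 in control replicates 1 to 4, and all 13 had positive differences, against 63.7% of all genes tested, of which 5 had no overlap between groups, against 11.2%. Suv39h2 put the 8 libraries in exactly the order of their S phase level, Cbx3 had 6 of 8 libraries at the same rank, Suv39h1 3 and Cbx1 2. Of the other members Ehmt2 also had 3, Ehmt1 and Setdb1 2, Trim28 and Cbx5 1 and Atf7ip 0. This rank count was not made over all genes tested. With the S phase level as a covariate the log2 difference was 0.30 for Suv39h2, 0.18 for Suv39h1, 0.23 for Cbx1 and 0.03 for Cbx3, in a fit where S phase level and group are closely tied. Of 10 erythroid markers 8 were positive and 1 rose, Gata1 (58.2 against 6.14 FPKM, log2 difference 2.71, limma adjusted p = 0.0254), with a level of 4.14 to 7.78 in the knockdown against 4.11 to 4.99 in the control libraries. With the erythroid level as a covariate the same 4 genes had 0.62, 0.39, 0.33 and 0.50. Without knockdown replicate 4 they had 0.69, 0.51, 0.37 and 0.52.

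Markers of other cell types also differed between the groups. For comparison, 63.7% of all genes tested were positive, 1.63% rose and 0.109% fell. The monocyte and macrophage level was 3.98 to 4.59 in the knockdown and 2.71 to 3.70 in the control libraries, with 7 of 7 markers positive and none passing. The megakaryocyte level was 1.79 to 2.93 against 0.956 to 1.58, with 4 of 5 tested markers positive, and 2 of them, Pf4 and Itga2b, rose. The neutrophil level was 1.67 to 3.57 against 2.62 to 4.84, and 3 of 7 markers, the granule protein genes Ngp, Camp and Ltf, fell. Against these, 2 of the 7 were positive, up to a log2 difference of 2.05, and 1 was higher without overlap between groups. All 8 B cell and all 5 plasma cell markers were negative without passing, with plasma cell levels of 4.53 to 5.56 and 5.56 to 6.72, and all 7 T cell and 4 NK cell markers were positive without passing. The part of these cells in the members' differences was not tested.

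**Figure D4:**
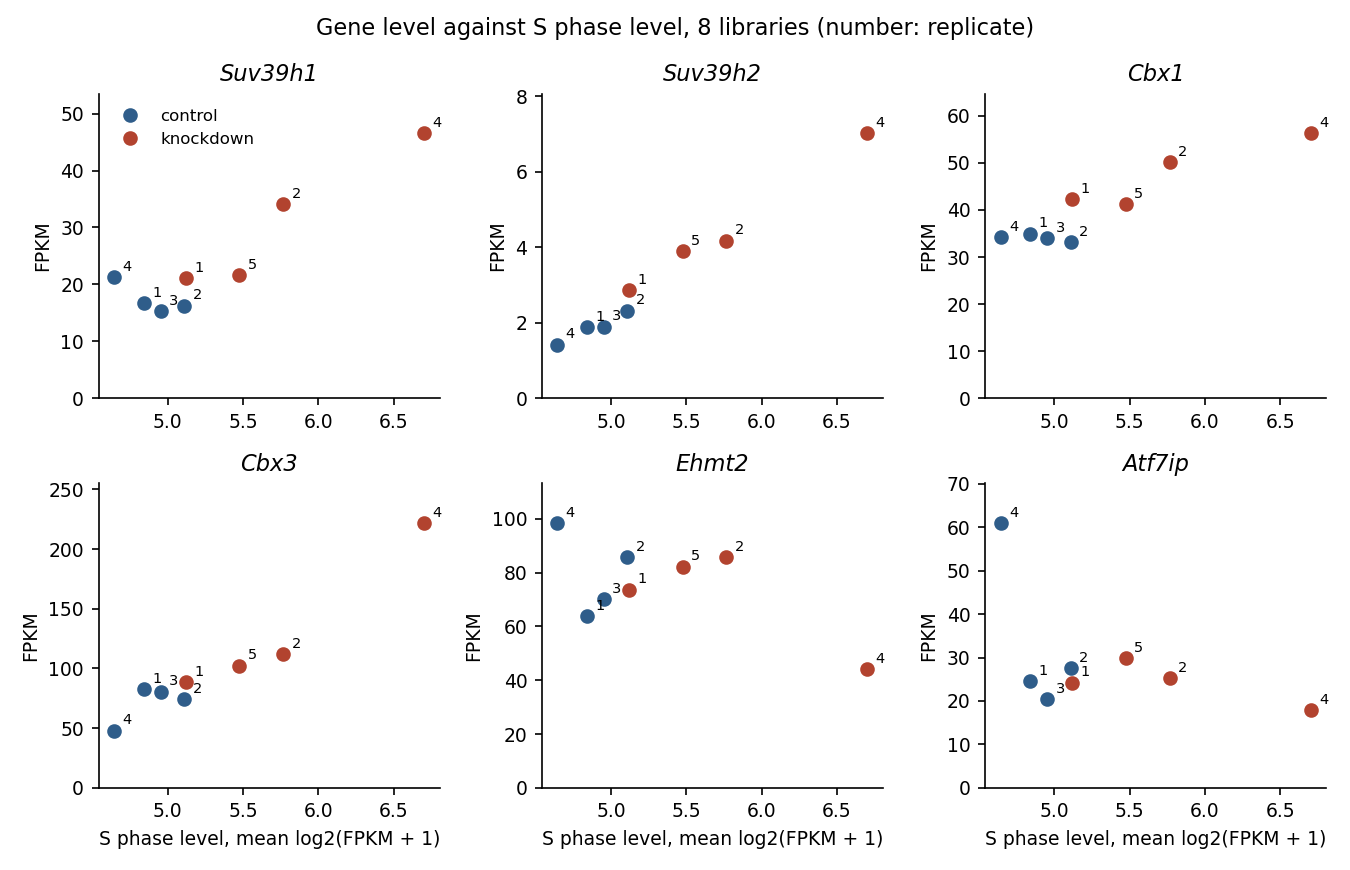
Level in FPKM (vertical axes from 0) of Suv39h1, Suv39h2, Cbx1, Cbx3, Ehmt2 and Atf7ip against the mean log2(FPKM + 1) level of the S phase genes in the 8 libraries, with replicate numbers beside the points. Knockdown replicate 4, at the highest S phase level of 6.70, is the highest point for Suv39h1, Suv39h2, Cbx1 and Cbx3. For Ehmt2 and Atf7ip it is the lowest in FPKM.

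The genes most like each member over the 8 libraries, by Pearson r of log2(FPKM + 1), were picked from all genes tested, and all 8 points share the differences of the libraries numbered 4. For Suv39h1 they were Dele1, Slc38a5 and Cdc20, an activator of the anaphase-promoting complex, each with an r of 0.99. Suv39h2 was most like Cenpu, a centromere protein gene (r = 0.997), Tamm41 and Gpn3 (0.995 each). Cbx3 was most like Zwint, a kinetochore gene (0.998), Pebp1 and Dnajc19, and Cbx1 most like Fads1, Phlda1 and Prss50 (0.993 to 0.995). The most alike genes of Atf7ip were Samd4b (0.990), Prrc2b and Zfp142, and those of Ehmt2 were Lrch1 (0.975), Ss18l1 and Mrtfa. Between members, r was 0.95 for Suv39h1 with Cbx1 and for Suv39h2 with Cbx3, 0.75 for Ehmt2 with Atf7ip, and -0.81 for Ehmt2 with Cbx3. Knockdown replicate 4 was the highest library for Setdb1, Suv39h1, Suv39h2, Cbx1 and Cbx3 and the lowest for Ehmt2 and Atf7ip, where it was the highest for 30.7% and the lowest for 25.7% of all genes tested. Control replicate 4 was the highest library for Ehmt2 and Atf7ip and the lowest for Suv39h2, Cbx3 and Cbx5. Of all genes tested it was the highest for 17.3% and the lowest for 37.5%.

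Among partners of the members, the CAF-1 subunits had the largest differences of the lists described here, though none passed. Of 7 HP1 partners 5 had positive differences, a share of 71.4% against 63.7% of all genes tested, and 3 had no overlap between groups with the knockdown higher, against 11.2%. Chaf1b and Chaf1a, subunits of the CAF-1 chaperone that loads histones at replication forks, had means of 25.7 against 6.70 FPKM (log2 difference 1.67, limma adjusted p = 0.0602) and 15.3 against 6.08 FPKM (1.14, adjusted p = 0.0698). At the other end Adnp, a zinc finger partner of HP1, was at 1.98 to 5.91 FPKM in the knockdown and 4.72 to 29.5 FPKM in the control libraries, with the highest in control replicate 4 (-1.07, adjusted p = 0.266). Of 7 genes of DNA methylation maintenance and H3.3 deposition 6 were positive (85.7% against 63.7% of all genes). Among them were the chromatin remodeller gene Hells (22.0 against 10.7 FPKM, 0.88, limma adjusted p = 0.158) and the maintenance methyltransferase gene Dnmt1 (46.6 against 33.0 FPKM, 0.46, adjusted p = 0.269). The medians of both lists were 0.43 and 0.46 against 0.13 for all genes, and 0.26 and 0.30 with median-of-ratios scaling.

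Of 12 tested partners of SETDB1 and the HUSH complex, which represses retroelements and transgenes, 9 were positive (75.0% against 63.7% of all genes) with a median of 0.20 against 0.13. With median-of-ratios scaling 7 were positive (58.3% against 48.5% of all genes) with a median of 0.05, against -0.01 for all genes. Sumo2, which encodes a small ubiquitin-like modifier, had means of 271 against 194 FPKM with overlapping groups (0.52, limma adjusted p = 0.365). The KRAB zinc finger genes, which encode the sequence readers of TRIM28, were found by an open reading frame rule that misses many of them. Of 111 tested, 40 were positive (36.0% against 63.7% of all genes), none passed, and the median was -0.05 against 0.13. Under median-of-ratios scaling the median was -0.19 with 18 positive (16.2%), against -0.01 and 48.5% for all genes. Under quantile normalization it was -0.23 with 11 positive (9.91%), against -0.03 and 46.6%. Without knockdown replicate 4 it was 0.03 with 66 positive (59.5%), against 0.14 and 69.3%. With the S phase covariate it was 0.12 with 87 positive (78.4%), against 0.11 and 67.6%. The KRAB zinc finger gene of smallest p was Zfp266, at 8.85 to 11.3 FPKM in the knockdown and 5.24 to 8.11 FPKM in the control libraries (0.57, adjusted p = 0.143).

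Of 9 tested H3K9 demethylases, the enzymes that remove the mark, 1 was positive (Kdm3a, 0.05) and none passed. That is 11.1% against 63.7% of all genes, with a median of -0.16 against 0.13. The median was -0.31 with median-of-ratios scaling (all genes -0.01) and -0.02 without knockdown replicate 4 (all genes 0.14). Without both libraries numbered 4 it was 0.0013 with 5 positive (55.6%), against 0.10 and 65.6% for all genes. With the S phase covariate it was 0.16 with 7 positive (77.8%), against 0.11 and 67.6%. Phf8 was at 12.1 to 16.2 FPKM in the knockdown and 16.0 to 24.8 FPKM in the control libraries (-0.38, limma adjusted p = 0.304), and Kdm4a at 21.6 to 30.0 FPKM and 25.8 to 35.8 FPKM (-0.24, adjusted p = 0.456).

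Germline and early embryo genes chosen as lying under H3K9 or DNA methylation were too low to test. None of 21 germline and early embryo genes reached the filter. Mael, Stk31, Sycp1, Zscan4c, Zscan4d, Zscan4f and Zfp352 were listed at 0 in all 8 libraries, and the highest value of the list was 1.12 FPKM for Stag3, a meiotic cohesin gene, in knockdown replicate 4. Of 9 genes derived from retroelements 3 were tested, and the paralogues Rtl8c and Rtl8a had log2 differences of -0.25 (limma adjusted p = 0.586) and 0.09 (adjusted p = 0.867). Of 10 genes that restrict retroelements or clear their nucleic acids 6 were positive, against 63.7% of all genes, and none passed. With median-of-ratios scaling 5 were positive, against 48.5% of all genes. Rnaseh2b and Rnaseh2c, subunits of ribonuclease H2, were at means of 40.3 against 20.6 FPKM (0.85, limma adjusted p = 0.198) and 58.0 against 36.8 FPKM (0.60, adjusted p = 0.247). In 2 of the 10 the groups did not overlap with the knockdown higher, against 11.2% of all genes. In 1 they did not with it lower, against 1.9%. The lower gene was Fv1, at 2.45 to 2.94 FPKM in the knockdown and 3.01 to 4.66 FPKM in the control libraries (-0.34, limma adjusted p = 0.320). Retroelement copies themselves were not analysed here.

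**Figure D5:**
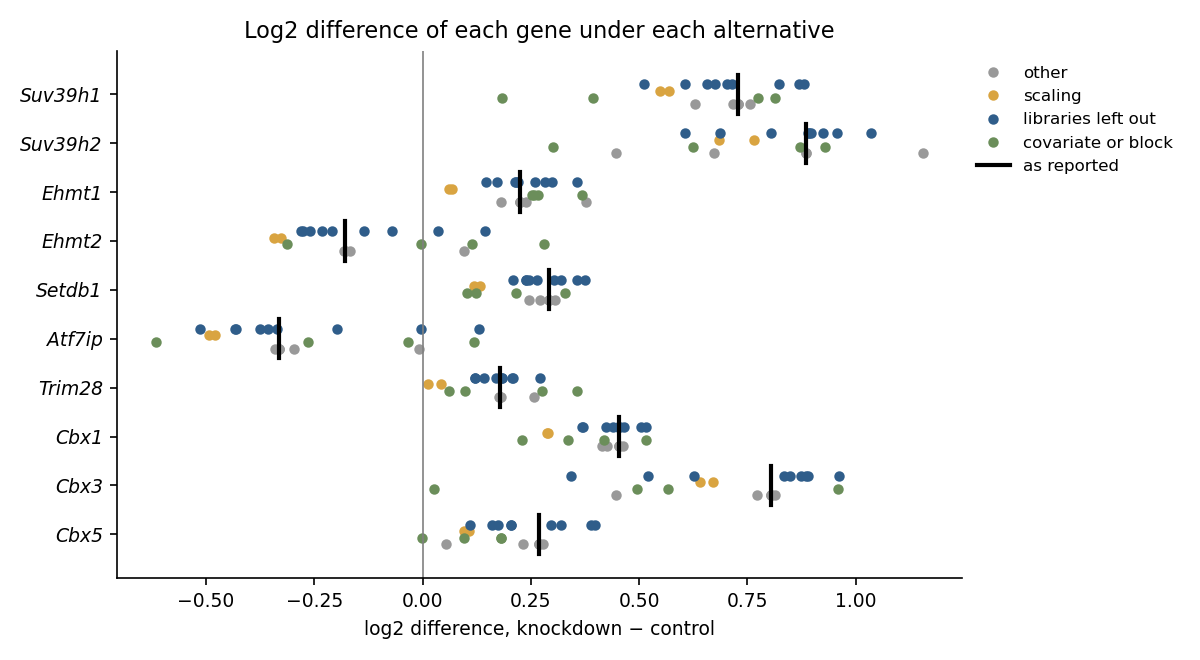
Log2 difference, knockdown minus control, of each of the 10 genes as reported (black line) and under each alternative way of scaling, filtering, leaving out libraries or adding a covariate (points). Suv39h1, Suv39h2, Ehmt1, Setdb1, Trim28, Cbx1 and Cbx3 stay above 0 throughout, while Ehmt2, Atf7ip and Cbx5 have points on both sides.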

How the data were processed

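Polyadenylated RNA was sequenced on a NovaSeq instrument, as the labels' protocols state. The authors deposited FPKM values for 54018 gene identifiers in 8 libraries. They used CASAVA and Cufflinks, per the submitters' processing notes, and the sources used here give no aligner, build, annotation or strand setting. GENCODE M21 (GRCm38) named 53951 identifiers and gave the coordinates, and 25157 identifiers were at 0 in every library. Depth was estimated from values of 1 to 3 fragments on transcripts of at least 1500 bases, 98.8% to 99.5% of which lay within 5% of a whole multiple.

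The 12890 genes that reached 1 FPKM in 4 or more libraries were tested on log2(FPKM + 1) in R 4.3.3 by limma 3.58.1, using its trended variance prior, with Benjamini-Hochberg adjustment, a threshold of 0.05 and no covariate. Single members were also given two-sided exact permutation tests over 70 assignments. On simulated data of 12502 genes, 32.0% of genes raised 2-fold and 84.0% of those raised 4-fold were called, as were 5 of 12302 unchanged genes. Other steps used Python 3.11.15 (numpy 2.4.6, pandas 2.3.3, matplotlib 3.10.9).

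The members and lists were chosen with earlier results of these data known. Named genes are the members, Kdm1a, Xist and Ddx3y, in each list those past the threshold or otherwise the 2 of smallest p, and the 3 genes most like a member. Cd79a, Adnp, Kdm3a, Fv1, Dclre1c, Cers2, Stag3 and the pseudogenes were named in addition, as were the genes listed at 0. A few genes picked this way are not reported here. KRAB genes were found by open reading frames of GENCODE transcripts with a KRAB A box and at least 3 zinc fingers, in place of the RefSeq proteins first planned. No 2 libraries agreed more closely than r = 0.9622 across genes. The labels do not say that each library is a separate animal. By Xist and Ddx3y, control replicate 1 was not from the same animal as control replicates 2 to 4. For the other libraries this is not known. The p-values therefore cover only the spread seen among the libraries, which may in part be technical.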

Additional observations from a re-analysis of the deposited data

How the results depend on the processing

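Each member, the member median and the counts over all genes were computed under 21 alternatives (20 for Suv39h2), and the related lists under 8 of them. Of 209 member values under them none passed the threshold, the lowest adjusted p was 0.0524 (limma, Suv39h2 with array weights), and 8 changed sign. Ehmt2 became 0.095 with array weights, 0.035 without knockdown replicate 4 (from -0.28 to 0.035 when 1 library was left out), 0.14 without both libraries numbered 4, 0.11 with sex and 0.28 with S phase level as a covariate. Atf7ip became 0.13 without both libraries numbered 4 and 0.12 with the S phase covariate, where Cbx5 was -0.00059. The member median of 0.28 was 0.12 with median-of-ratios scaling, 0.11 with quantile normalization and 0.15 with the S phase covariate, and 0.23 to 0.35 when 1 library was left out. The cause was not tested.

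Over all genes, 210 were higher and 14 lower. The counts were 22 and 2 with a pseudocount of 5, 1 and 1 with genes above 0 in at least 1 library, 68 and 3 with a mean of at least 5 FPKM (where Suv39h2 was not tested), 669 and 92 with array weights, 1 and 1 with sex, and 9 and 5 with S phase level as a covariate. The first count was 139 with median-of-ratios scaling, 108 with quantile normalization and 109 without both libraries numbered 4. Leaving out 1 library gave 7 to 301 higher and 1 to 40 lower. For higher genes, knockdown replicate 2 left out gave 12, and control replicates 1, 2, 3 and 4 left out gave 84, 39, 26 and 7. The lower count was 40 without knockdown replicate 5.

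With the replicate number as a block 0 genes were higher and 0 lower, and Suv39h2 had 0.93. Same-numbered libraries had deviations correlated by 0.163 (number 1), 0.0469 (2) and -0.118 (4), and not every library correlated best with its own number. So few shared numbers cannot settle whether the numbers pair the libraries, and the main fit used no pairing.

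Limits are the 4 libraries a group, sex and S phase level that move with the group, and a table of FPKM without counts. At this size most 2-fold changes were not called on simulated data.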
